A study of Mus musculus with 148 samples.

Results

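The cell cycle module described here holds 35 genes whose products copy DNA, drive mitosis or build the spindle and the chromosomes. The members were chosen by name, and all 35 were among the 52542 genes of the count tables. A cell that divides first makes the helicase subunits Mcm2, Mcm3, Mcm5 and Mcm6, the sliding clamp Pcna and the enzymes that supply nucleotides, copies its DNA, and then makes cyclins, kinases and spindle proteins for mitosis. Many of these transcripts are switched on by E2F factors before replication, or by the MuvB complex with B-Myb and FoxM1 before mitosis, and are held down by the DREAM complex when a cell rests. In tissue immune cells the module marks clonal expansion of activated T cells, NK cells and B cells, and renewal of resident macrophages, whereas mature neutrophils are past division. The members were placed in 4 role groups: 9 genes of DNA replication and nucleotide supply, 12 mitotic cyclins, kinases and factors of protein degradation, 10 genes of the spindle, kinetochore and chromosomes, and 4 genes that resting cells also use (Stmn1, Hmgb2, Tubb5 and H2afz). The 31 genes of the first 3 role groups are called the 31-gene set below.

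Immune cells came from female PA-GFP C57BL/6 mice, whose cells carry a GFP that light switches on, and were sequenced by SPID-seq, a plate method in which a unique molecular identifier (UMI) counts each captured mRNA once. Except for the Normal mice, animals received EO771-tdTomato breast cancer cells with Matrigel in the right inguinal mammary gland at 8 weeks of age, and in the Relapse-free mice and the mice with metastases the primary tumor was resected after 3 weeks and the lungs were imaged by CT each week. The groups were Normal lungs (3 mice), Pre-MET lungs taken while the primary tumor was in place (3 mice), Relapse-free lungs, which held no tdTomato signal (6), Distal normal tissue of metastatic lungs (14), dissociated metastases (MET, 13), photoactivated metastasis core (MET Core, 13), photoactivated invasive margin (MET Invasive margin, 7) and EO771 primary tumors (Primary, 4). MET Core and MET Invasive margin cells were sorted on photoactivated GFP without CD31, some Relapse-free plates on the same gate, and all other plates on CD45 without CD31, each after exclusion of dead cells and doublets. The gate and the niche therefore cannot be told apart where MET Core or its margin is set against MET, Distal normal tissue or Primary. All tumors came from 1 cell line, and Pre-MET mice 8, 9 and 10 also gave 3 of the 4 primary tumors.

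The annotation placed 23425 cells of 63 mouse-and-tissue samples from 27 mice in 27 immune subpopulations, called labels here and named as the authors named them. Samples held 55 to 1974 cells, and the median UMI count per cell was 1972 to 3689.5 in Primary samples against 629 to 2743.5 in the others. All plates share the same well barcodes by design. The 9 plates of Normal mice were the only plates of their sequencing batch, so batch and Normal cannot be told apart. Primary mice 9, 10 and 38 were likewise the only samples of theirs, so for 3 of the 4 tumors batch and Primary cannot be told apart. The 4 T cell genes Cd3d, Cd3e, Cd3g and Trac summed to 2423 to 5229 UMIs per 1000000 (CPM) in the T labels and to at most 745 elsewhere, in NK Xcl1. A list of NK cell genes did not separate the labels as well. It summed to 16391 CPM in NK Ncr1, 5838 CPM in NK Xcl1 and at most 641 CPM in most labels. In T CD8 Gzma it reached 12282 CPM, where the 4 T cell genes were at 2598 CPM. The 4 epithelial genes Krt8, Krt18, Epcam and Krt19 summed to 821 CPM in Mac Cd9, the alveolar macrophages, and to at most 76.9 in any other label. The 592 wells left empty held a median of 8 UMIs, too few to give a share of wells with 2 member UMIs. Of their 8490 UMIs, 3 were of the 31-gene set (353 CPM) and 8 of the module (942 CPM).

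The promoters of 8 members are shown first, because they stand for the 4 role groups and include the 3 genes that passed a test below. Each line gives the 150 bases before the RefSeq start of the gene on its own strand (build GRCm38.p6). Capitals mark 3 motifs on either strand: the CHR letters TTTGAA, which MuvB reads, the CCAAT box CCAAT, which NF-Y reads, and the E2F letters TTTGGCGC, TTTCCCGC, TTTGCCGC or TTTCGCGC, where matches may overlap.
Mcm6: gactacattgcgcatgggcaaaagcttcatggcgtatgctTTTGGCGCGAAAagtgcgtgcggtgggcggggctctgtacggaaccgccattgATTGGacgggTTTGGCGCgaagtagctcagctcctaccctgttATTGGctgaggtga
Pcna: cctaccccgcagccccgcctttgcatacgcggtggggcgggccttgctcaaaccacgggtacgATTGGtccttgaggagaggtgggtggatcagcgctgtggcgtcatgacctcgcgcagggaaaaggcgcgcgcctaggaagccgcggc
Cdk1: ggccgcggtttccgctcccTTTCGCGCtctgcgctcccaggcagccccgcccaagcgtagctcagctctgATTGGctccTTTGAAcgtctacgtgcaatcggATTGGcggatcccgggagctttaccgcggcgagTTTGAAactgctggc
Birc5: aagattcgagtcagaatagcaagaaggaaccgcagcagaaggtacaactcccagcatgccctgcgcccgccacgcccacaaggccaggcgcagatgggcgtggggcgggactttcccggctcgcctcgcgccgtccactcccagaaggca
Cenpa: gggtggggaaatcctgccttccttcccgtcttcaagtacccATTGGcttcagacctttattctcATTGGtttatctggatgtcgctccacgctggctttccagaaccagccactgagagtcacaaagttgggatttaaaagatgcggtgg
Top2a: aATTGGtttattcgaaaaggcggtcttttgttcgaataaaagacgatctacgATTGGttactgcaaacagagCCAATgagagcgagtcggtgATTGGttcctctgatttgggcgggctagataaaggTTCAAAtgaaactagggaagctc
Mki67: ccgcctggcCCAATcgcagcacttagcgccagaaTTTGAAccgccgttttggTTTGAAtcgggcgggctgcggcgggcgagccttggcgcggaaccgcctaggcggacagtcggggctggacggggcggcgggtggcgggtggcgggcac
H2afz: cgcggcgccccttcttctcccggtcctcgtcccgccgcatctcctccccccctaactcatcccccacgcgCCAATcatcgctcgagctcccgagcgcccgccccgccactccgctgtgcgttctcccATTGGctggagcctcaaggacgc
Mcm6 lies on the minus strand at chr1:128359706-128359855, Pcna (minus) at chr2:132253181-132253330, Cdk1 (minus) at chr10:69352913-69353062 and Birc5 (plus) at chr11:117849087-117849236. Cenpa (plus) lies at chr5:30666736-30666885, Top2a (minus) at chr11:99024190-99024339, Mki67 (minus) at chr7:135716380-135716529 and H2afz, listed by RefSeq as H2az1 (plus), at chr3:137864337-137864486. The printed stretch of Mcm6 holds 3 E2F matches, the first 2 of which overlap, and Mki67 and Cdk1 each hold 2 CHR matches. The printed stretch of Birc5 holds none of the 3 motifs.

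RefSeq windows of 300 bases, from 250 before to 50 after the start, were found for 30 members. The CHR letters stood in 15 of the 30 (50%), against 20.2% of 27025 genes. They stood in 7 of 10 mitotic members and 6 of 8 spindle and chromosome members, but in 1 of 9 replication members. E2F letters were found in 3 of 9 replication members and in 4 of 30 members in all (13.3%), against 2.61% of all genes. The CCAAT box was in 26 of 30 members (86.7%), against 41.1%. A match is a run of letters in a window and says nothing of binding.

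Most immune cells held no UMI of the 31-gene set. It was at 0 in 79.1% of the 23425 cells, and 2572 cells (11.0%) held 2 or more UMIs. The signal was concentrated in few cells: 450 cells (1.92%) with 10 or more UMIs carried 61.6% of all 26216 UMIs of the set. The 4 wider genes carried 49.3% of the UMIs of the whole module, led by Tubb5, a beta tubulin, with 11113 UMIs in 14.6% of cells, and H2afz, a histone H2A variant, with 8338 UMIs in 18.6%. Counting all 35 members, 26.9% of cells held 2 or more UMIs, and 9.48% when each cell was thinned to 500 UMIs, the depth of the shallowest cell. For the 31-gene set the thinned share was 4.13%. Near-identical copies of H2afz, Tubb5 and Hmgb2 elsewhere in the genome make their counts less certain, since reads with several mapping positions were excluded.

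Cells with 2 or more UMIs of the 31-gene set also carried more of a list of 75 further cell cycle genes (among them Mcm4, Mcm7, Tuba1b, Hmgn2 and Pclaf) that the count of members did not use. Those genes summed to 3137 CPM in these 2572 cells and to 1174 CPM in the remaining 20853. The 450 cells with 10 or more UMIs reached 6577 CPM. The 2 sets of cells differed in depth as well, with medians of 2177.5 and 1070 UMIs. In T CD8 Lag3 the values were 7278 CPM in 120 cells and 1703 CPM in 227 cells. In Neut Ptgs2, mature neutrophils, they were 1544 CPM in 66 cells and 1178 CPM in 1426 cells. The 18 genes that brake the cycle or mark rest (such as Cdkn1b, Btg1 and Klf2) went the other way over all immune cells, at 2384 CPM in cells with 2 or more UMIs and 3544 CPM in the rest.

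The labels were ordered by the summed level of the 31-gene set with all cells of a label pooled over mice and tissues, so the order need not hold within a sample. T CD8 Lag3, dysfunctional CD8 T cells, came first at 3177 CPM (347 cells, median 1200 UMIs), and 34.6% of its cells held 2 or more UMIs of the set (95% binomial interval 29.6% to 39.8%, Clopper-Pearson). T Treg, the Foxp3 regulatory T cells, followed at 3157 CPM with 31.6% of 206 cells (25.3% to 38.4%). The intervals of these labels overlapped, but they treat pooled cells as independent and leave out the spread between mice. Over samples of 10 or more cells, the share was 25% to 68.8% in T CD8 Lag3 and 5.88% to 44.4% in T Treg. T CD8 Gzma, activated CD8 T cells, reached 2186 CPM with 18.1% of 375 cells, and NK Xcl1 reached 1796 CPM with 30.8% of 198 cells. T CD4 S100a4, the activated CD4 cells, stood at 1261 CPM, DC cDC1 at 1230 CPM over 254 cells, B cells at 1017 CPM, NK Ncr1 at 947 CPM, T CD8 Gzmk at 834 CPM and Mac Cd81, tumor-associated macrophages, at 803 CPM. The place of DC cDC1 rested on few cells, since 13 of them held 92.1% of its UMIs of the set and 1 held 347 of 864. Its 5 samples of 10 or more cells were at 51.8 to 589 CPM, and at 0 to 195 CPM without the highest cell. Other levels also leaned on 1 sample, as seen by leaving out the sample with most UMIs of the set in each label, an alternative chosen after seeing the data. T Treg fell to 2143 CPM without Primary mouse 38, which held 706 of its 1510 UMIs, 365 of them in 1 cell. T CD8 Gzma fell to 1593 CPM without MET Core mouse 17, and without Primary mouse 9 DC cDC1 fell to 786 CPM and B cells to 522 CPM. T CD8 Lag3 (2856 CPM without Primary mouse 38), T Treg, T CD8 Gzma and NK Xcl1 (1499 CPM without MET Core mouse 28) stayed the first 4. The naive-like T CD4 Lef1 and T CD8 Dapl1 were at 393 and 528 CPM. At the low end, Neut Camp held 55.4 CPM, in 13 UMIs over 98 cells.

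A low share of cells with 2 UMIs was found in every label, and 2 large labels serve as its background here. Mon Ace monocytes (median 1047 UMIs) had 6.91% of 1375 cells with 2 or more UMIs of the set and 269 CPM. Neut Ptgs2 (median 944.5 UMIs) had 4.42% of 1492 cells and 219 CPM. Shares near these values are read as background. In Neut Ptgs2, 50.8% of the UMIs of the set were of 1 gene, Kif23, without which its level was 107.7 CPM. The share of this label is given with Kif23. Thinned to 500 UMIs, the shares were 19.8% in T CD8 Lag3, 15.6% in NK Xcl1, 13.4% in T Treg and 10.9% in T CD8 Gzma, against 2.43% in Mon Ace and 2.13% in Neut Ptgs2. Labels of deeper cells fell on thinning as well. Mac Cd81 (median 2327 UMIs) fell from 27.9% to 6.62% on thinning, DC cDC2 (1584 UMIs) from 14.2% to 2.66%, and Mon MHC-II (2166 UMIs) from 11.3% to 1.08%, under the thinned share of Mon Ace. For the whole module of 35 genes the corresponding shares were 45% (thinned 26.2%) in T CD8 Lag3, 50.5% (23.4%) in T Treg, 18.8% (6.67%) in Mon Ace and 12% (5.11%) in Neut Ptgs2. The labels were built by clustering these cells on their genes, possibly including members, so the order is a description and was not tested. In a summed level, fewer dividing cells and less RNA per dividing cell cannot be told apart.

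**Figure D1:**
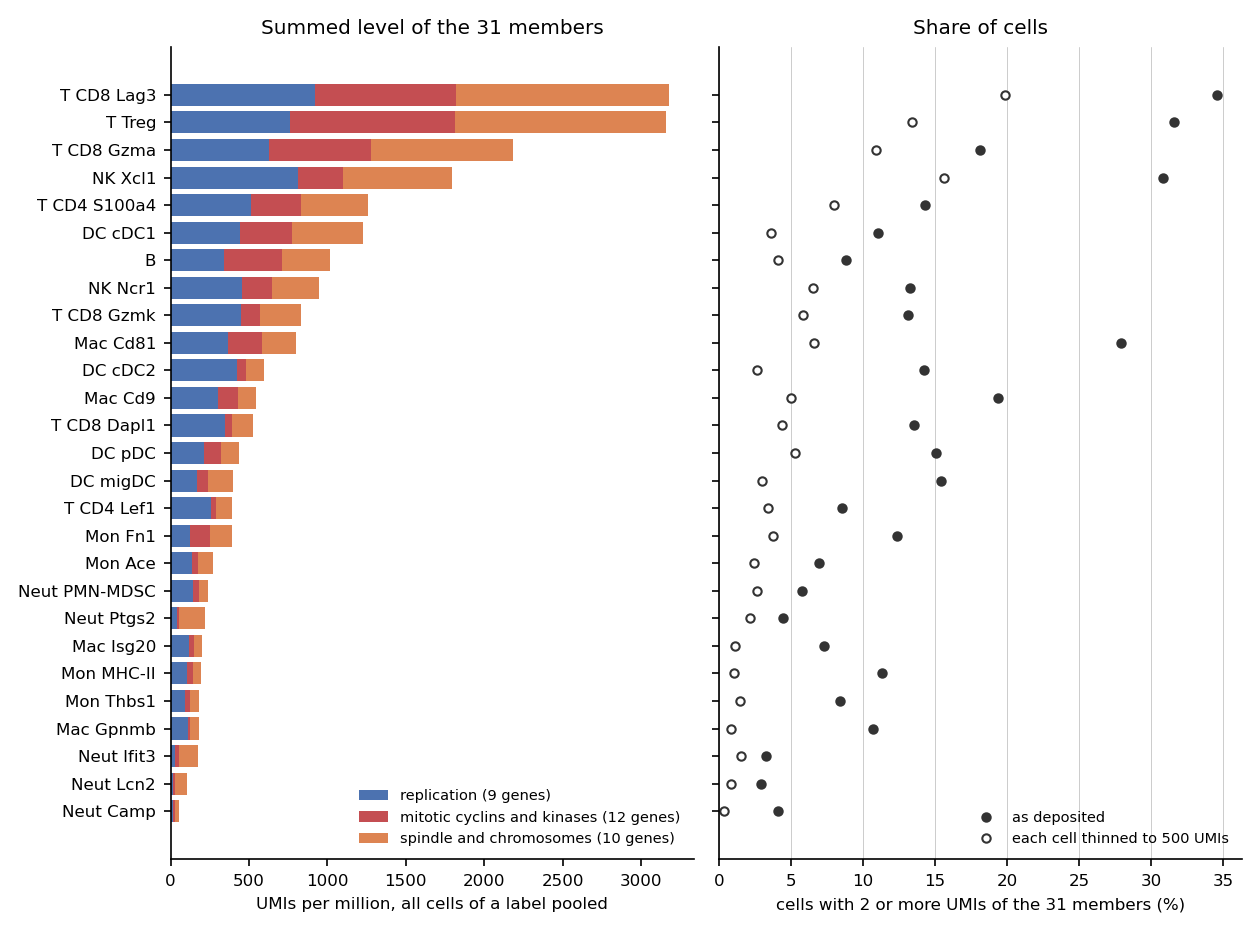
Left, bars give the summed level of the 31-gene set in CPM with all cells of a label pooled, split by role group. Right, points give the percentage of cells with 2 or more UMIs of the set as deposited (filled) and with each cell thinned to 500 UMIs (open). T CD8 Lag3 and T Treg stand at the top at 3177 and 3157 CPM (2856 and 2143 CPM without Primary mouse 38), and Mac Cd81 moves from 27.9% to 6.62% on thinning.

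The balance of role groups differed among labels. Replication genes summed to 0.407 times the mitotic and spindle genes in T CD8 Lag3 (919 against 901 and 1357 CPM), 0.316 times in T Treg, 0.4 times in T CD8 Gzma and 0.467 times in Mon Fn1. They exceeded them in T CD4 Lef1 (1.93 times), T CD8 Dapl1 (1.90 times), DC cDC2 (2.38 times) and T CD8 Gzmk (1.17 times). The excess was not particular to these labels. Mac Gpnmb, a label with little signal, had 144 CPM of replication genes against 8.00 and 40.0 CPM in the margin of mouse 33. In MET of mouse 32 it had 54.3 against 6.03 and 30.2 CPM. In NK Xcl1 the ratio was 0.822, with 810.3 CPM of replication genes, the second-highest level of that role group after T CD8 Lag3. Without the sample with most UMIs of the set the ratio became 0.561 in T Treg, 0.653 in T CD8 Gzma, 3.13 in T CD8 Dapl1 and 1.24 in NK Xcl1, where replication genes then exceeded the others.

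Single members followed the same labels, with exceptions. Of the 31 genes, 14 were highest in T Treg, 10 in T CD8 Lag3, 3 in NK Xcl1 and 2 in T CD8 Gzma, and the other 2 were Rrm1, a ribonucleotide reductase subunit highest in Mac Cd9 at 70.3 CPM, and Kif23, a kinesin of cytokinesis. The T Treg count rested on Primary mouse 38: without that sample of T Treg, 2 genes were highest in T Treg and 21 in T CD8 Lag3. With each label lacking its sample with most UMIs of the set, the counts were 5 and 18. Mki67, a protein of the mitotic chromosome surface, was at 345 CPM in T CD8 Gzma, 328 CPM in T Treg and 321 CPM in T CD8 Lag3, and at 14.7 CPM in Mon Ace. Without MET Core mouse 17, a sum of 10 cells, it was at 156 CPM in T CD8 Gzma. Top2a, the topoisomerase that untangles sister DNA, was at 190.2 CPM in T Treg and 13.7 CPM in Mon Ace. Cenpa, the centromeric histone H3, was the highest member of its role group and reached 426 CPM in T CD8 Lag3 against 19 CPM in Mon Ace. Without Pre-MET mouse 9, Mon Ace fell to 8.35 CPM for Mki67, 4.91 CPM for Top2a and 12.3 CPM for Cenpa. Without Primary mouse 38, Top2a fell to 136 CPM in T Treg and Cenpa to 365 CPM in T CD8 Lag3. Birc5, or survivin, a subunit of the chromosomal passenger complex, led the mitotic group at 251 CPM in T CD8 Lag3 against 6.63 CPM in Mon Ace. Pcna led the replication group, at 129 CPM in T CD8 Gzma and 66.8 CPM in Mon Ace. Stmn1, which destabilizes microtubules, was highest in T Treg at 153 CPM and at 1.42 CPM in Mon Ace. H2afz was at 438 CPM in T CD8 Gzma and 427 CPM in NK Ncr1, and Hmgb2, a chromatin protein, was at 197 CPM in Neut Ptgs2, above its 90.5 CPM in Mon Ace. Counts of single members were small, and 17 of the 31 were seen in under 1% of cells.

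**Figure D2:**
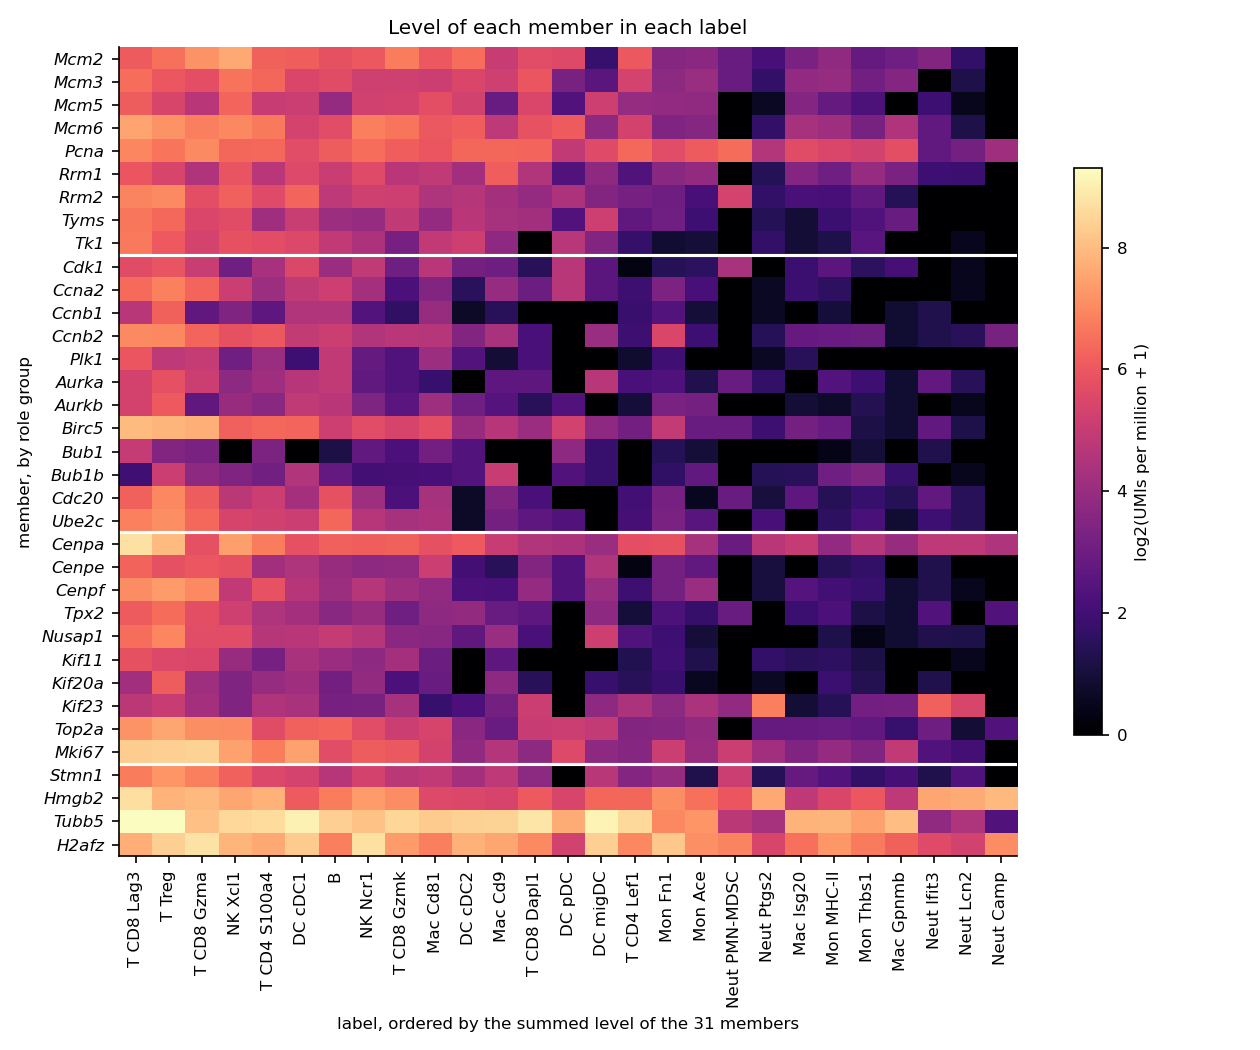
Each cell of the grid gives the level of 1 member (rows, by role group, white lines between groups) in 1 label (columns, ordered by the summed level of the 31-gene set) as log2 of CPM plus 1. Most rows are brightest at the left, in T CD8 Lag3 and T Treg, whereas the row of Kif23 is brightest in Neut Ptgs2 and Neut Ifit3.

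Kif23 stood apart from the other members. Over the 27 labels, its level had a Spearman rho of 0.110 with the summed other members of the set, against 0.554 to 0.954 for the other 30 genes. These correlations are over labels that share libraries, and no p is given. Its highest levels were in neutrophils, at 111 CPM in Neut Ptgs2 and 72.6 CPM in Neut Ifit3, against 26.3 CPM in T CD8 Lag3. The 146 neutrophils with a Kif23 UMI (3.68% of 3972) held 347 Kif23 UMIs but 15 UMIs of the other 30 genes, or 57.8 CPM, and 1 Mki67 UMI, while neutrophils without Kif23 held 88.6 CPM. Outside neutrophils, the 204 immune cells with a Kif23 UMI held 5488 CPM of the other 30 genes and those without held 503 CPM. Kif23 was found in 30 of 42 neutrophil samples of 10 or more cells, and 96 of its 347 neutrophil UMIs came from Relapse-free mouse 35. Without Kif23, the set fell from 219 to 107.7 CPM in Neut Ptgs2 and from 172 to 99.6 CPM in Neut Ifit3. The neutrophil levels printed elsewhere in the text include Kif23.

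The other members differed in how far they marked cells that also held further members. Of cells with a UMI of Ccna2 (cyclin A2), 88.4% held 2 or more UMIs of the remaining members of the set, and 76.9% of cells with Birc5, 63.7% with Mki67 and 61.8% with Top2a did so. The share was 54.4% to 88.4% over the 12 mitotic members. It was lower for some members of the other role groups, at 23.9% for Pcna, 36.6% for Cenpa, 24.3% for Tubb5 and 21.1% for H2afz. For Stmn1 it was 65.6%.

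**Figure D3:**
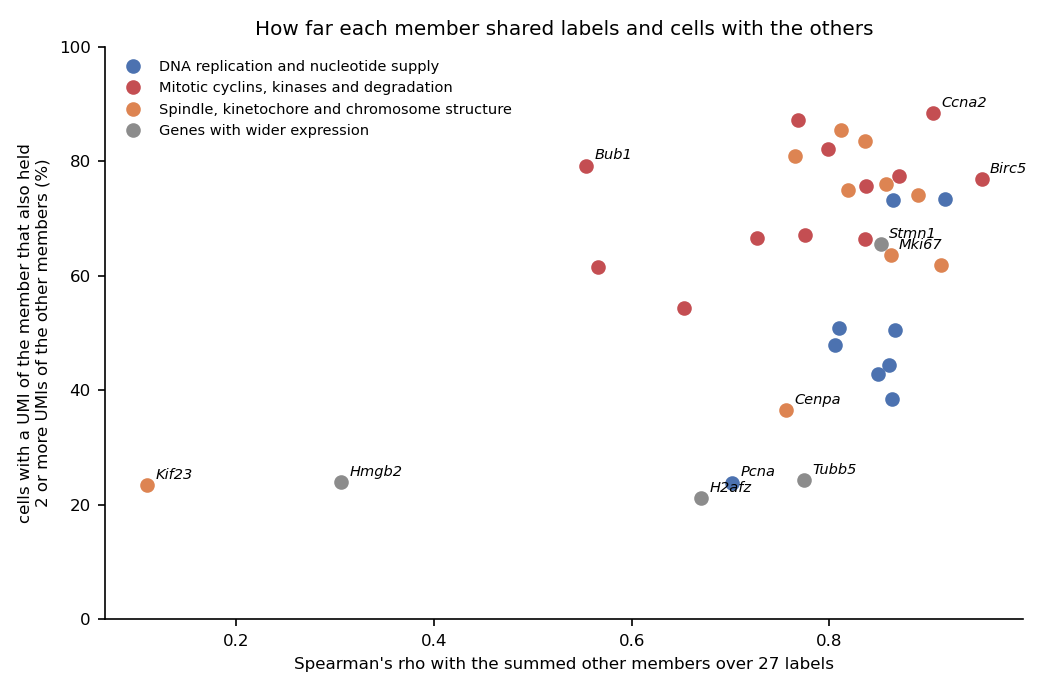
Each point is 1 member. The horizontal axis gives Spearman's rho over 27 labels between its level and the summed other members of the 31-gene set, and the vertical axis the percentage of cells with a UMI of the member that held 2 or more UMIs of the others. Kif23 lies at the lower left (rho 0.110, 23.4%) and Ccna2 at the top (88.4%).

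Across tissues with all labels pooled, the 31-gene set was at 399 CPM in Normal, 483 CPM in Pre-MET, 522 CPM in Relapse-free, 412 CPM in Distal normal tissue, 318 CPM in MET, 712 CPM in MET Core, 814 CPM in MET Invasive margin and 947 CPM in Primary. The share of cells with 2 or more UMIs of the set was 27.0% in Primary and 8.43% to 12.9% in the other tissues. Thinned to 500 UMIs it was 7.12% in Primary, 5.76% in MET Invasive margin, 5.16% in MET Core and 2.80% to 4.16% elsewhere. For all 35 members, 51.3% of Primary cells and 23.7% to 27.5% of cells in the other tissues held 2 or more UMIs, and thinned shares were 12.7% and 7.46% to 11.1%. The Primary share of the whole module was 2.10 times the median of the other 7 tissues as deposited and 1.26 times after thinning. Normal lungs had the largest excess of replication over mitotic and spindle genes, 1.79 times, and Pre-MET lungs 0.515 times. Mki67 was at 8.78 CPM in Normal, 38.0 CPM in Pre-MET, 79.9 CPM in MET Core and 68.5 CPM in Primary. These values pool the cells of all mice of a tissue and do not show the spread between mice. Of 329 Mki67 UMIs in MET Core T cells, 111 came from 10 T CD8 Gzma cells of mouse 17. By sample, Top2a over all immune cells was at 1.12 to 6.92 CPM in Normal and 1.64 to 46.9 CPM in Pre-MET. It was at 0 to 139 CPM in MET Core and 33.4 to 80.8 CPM in Primary.

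Values of T cells spread widely over tissues. In Normal lungs the set stood at 348, 360 and 321 CPM in T cells of mice 1, 2 and 3, and in Pre-MET lungs at 501, 240 and 395 CPM in mice 8, 9 and 10, which overlapped. Relapse-free T cells ranged from 460.1 to 1608 CPM (median 768, 6 mice), those of Distal normal tissue from 292 to 1826 CPM (median 860.4, 13 mice) and those of MET from 152 to 2434 CPM (median 546, 13 mice). MET Core T cells ranged from 434 to 4319 CPM (median 1563, 13 mice) and MET Invasive margin T cells from 709 to 2294 CPM (median 1629.7, 6 mice). Primary T cells were at 1264, 1452, 946 and 3252 CPM in mice 8, 9, 10 and 38. All MET Core, MET Invasive margin and Primary samples except the lowest core sample thus lay above every Normal and Pre-MET sample, which overlapped each other, while MET Core overlapped Distal normal tissue and MET. Within mice that gave both, MET Core was higher than MET in 10 of 12 mice and higher than Distal normal tissue in 8 of 12. Without the cell holding most UMIs of the set in each sample these were 10 of 12 and 11 of 12, with medians of 1117 CPM in MET Core against 334 in MET and 417 in Distal normal tissue.

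Plates of several tissues shared sequencing batches, which allowed the same values within a batch. With the samples of a batch pooled, MET Core T cells stood above those of MET in each of the 4 batches that held both, at 1043 against 649.5 CPM, 2213 against 637, 1345 against 1306 and 1796 against 607 CPM. Against Distal normal tissue they were higher in 3 of 4 batches, at 1043 against 778 CPM, 1345 against 882 and 1796 against 709, and lower in the fourth, at 1563 against 1826 CPM. The mix of labels also differed between tissues. Within T CD4 Lef1 alone, the set had a median of 829 CPM in 8 MET Core samples (190.1 to 1392), 264 CPM in 10 of Distal normal tissue (0 to 717) and 254 CPM in 8 of MET (50.2 to 684), ranges that overlapped. Without the highest cell of each sample these medians were 184, 186 and 116 CPM, so MET Core was no longer above Distal normal tissue. Within T CD8 Gzmk, 11 MET Core samples had a median of 896 CPM (138 to 2363), 7 of Distal normal tissue 853 CPM (338 to 1658) and 8 of MET 318 CPM (148 to 636). Without the highest cell they were 570.2, 399.7 and 171 CPM.

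T CD8 Lag3 reached 10 cells in 7 samples, 4 of them MET Core. The set was at 1017 CPM in the core of mouse 17, 1146 CPM in mouse 25, 2418 CPM in mouse 31 and 2612 CPM in mouse 36. It was at 5152 CPM in the margin of mouse 36, 5239 CPM in the primary tumor of mouse 38 and 1696 CPM in the relapse-free lung of mouse 7. Of the 7 samples 5 lay above 1261 CPM, the pooled level of T CD4 S100a4, and the cores of mice 17 and 25 lay below it. The highest cell of a sample carried 22.2% to 64.3% of its UMIs of the set, and without it the 7 samples ranged from 532 to 4478 CPM. The share of cells with 2 or more UMIs was 25% to 68.8% (thinned, 6.61% to 40.8%). Within a sample, T CD8 Lag3 was not always first. In the core of mouse 17, T Treg (2094 CPM), T CD4 Lef1 (1392) and T CD8 Gzmk (1177) lay above it. T CD8 Gzma (8776) and NK Xcl1 (1292) did so too, whereas T CD4 S100a4 (568) and T CD8 Dapl1 (550) lay below. In the core of mouse 25, T CD4 S100a4 (2173 CPM) lay above it, and T CD8 Gzmk (1111) and NK Xcl1 (735) below. In the core of mouse 36, it lay above NK Xcl1 (1901 CPM), T CD4 S100a4 (1663), T CD8 Gzmk (701) and T Treg (372).

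T Treg was counted in 7 samples as well. Primary samples were at 835, 1285, 776 and 6841 CPM in mice 8, 9, 10 and 38, the MET Core samples at 2094 and 372 CPM in mice 17 and 36, and the margin of mouse 36 at 2071 CPM. Mouse 38 lay far above the other 3 tumors, and 1 of its 27 cells held 365 of its 706 UMIs of the set. Without that cell it was at 4168 CPM. In T CD8 Gzma the 3 Normal samples were at 729, 376 and 57.5 CPM, the Relapse-free samples of mice 7 and 11 at 2076 and 305 CPM, and Distal normal tissue of mouse 36 at 744 CPM. The core and margin of mouse 17 were at 8776 and 3348 CPM in 10 and 12 cells, where the highest cell held 204 of 399 and 44 of 57 UMIs, and stood at 6669 and 1001 CPM without it. In T CD4 S100a4 the 3 Primary samples were at 4356, 1918 and 1890.0 CPM in mice 9, 10 and 38, and 5 MET Core samples ranged from 568 to 2173 CPM, 3 Normal samples from 246 to 1045 CPM. In Primary mouse 9, 1 cell held 189 of 202 UMIs, and without the highest cell the 3 tumors were at 364, 1202 and 1432 CPM and the 5 cores at 0 to 1012 CPM.

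NK cells expand locally in response to cytokines. NK Xcl1 was at 1292, 735, 5758 and 1901 CPM in the cores of mice 17, 25, 28 and 36, at 1699 CPM in the primary tumor of mouse 38 and at 2592 CPM in the relapse-free lung of mouse 7. These samples held 10 to 22 cells each, and without the highest cell they ranged from 308 to 2910 CPM. NK Ncr1 was at 566, 408 and 399.6 CPM in the 3 Normal lungs and at 212, 755 and 618 CPM in the 3 Pre-MET lungs. Its margin samples were at 2188, 820.2, 3239 and 3748 CPM in mice 17, 28, 31 and 36, and the cores of the same mice at 929, 369, 3176 and 293 CPM. Margin was above core in 4 of 4 mice, also without the highest cell of each sample (1663 against 325, 587 against 260.0, 2407 against 2046 and 511 against 188 CPM). In mouse 36, 125 of the 140 margin UMIs came from 1 cell. Thinned shares were higher in the margin in 3 of 4 mice. Against Distal normal tissue of the same mice the core was higher in 1 of 7 by summed level and in 3 of 7 by thinned share, and against MET in 5 of 7 and 6 of 7. The medians of core and MET went against that count, at 432 and 505 CPM, and their thinned shares were 5.46% and 5.32%. Without the highest cell of each sample the medians were 260.0 and 208 CPM. Those of core and Distal normal tissue were 369 and 870 CPM, with all cells.

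B cells divide in germinal centers and lymphoid aggregates. In Primary they stood at 4090, 3579.6, 844 and 1083 CPM in mice 8, 9, 10 and 38, while the 26 samples of the other 7 tissues ranged from 40.9 to 805 CPM (median 252). The groups did not overlap. Few cells carried most of that gap: 740 of 899 UMIs of the set in mouse 9 came from 1 cell of 90142 UMIs, and 177 of 198 in mouse 8 came from 1 cell. Without the highest cell of each sample, Primary ranged from 473 to 988 CPM and the others from 0 to 383.6 CPM, again without overlap. The share of B cells with 2 or more UMIs was 20%, 19%, 17% and 23.2% in the 4 tumors (thinned 11.6%, 12.6%, 6.57% and 10.5%), and 0% to 20% in the other samples (thinned 0% to 12.4%), which overlapped. Top2a had 120 UMIs over the 4 Primary samples (88.3 to 330 CPM) and was found in 2 other samples, at 20.4 CPM in Normal mouse 3 and 6.61 CPM in Distal normal tissue of mouse 36. Birc5 had 55 UMIs in Primary and 0 in each other tissue. In the batch that Primary mouse 8 shared with other tissues, its B cells were at 4090 CPM against 182 CPM in Distal normal tissue, 465 CPM in MET and 260.3 CPM in the margin. Most of this gap came from 1 cell, since Primary mouse 8 was at 608 CPM without its highest cell. The values of the other tissues in the batch include their highest cells.

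**Figure D4:**
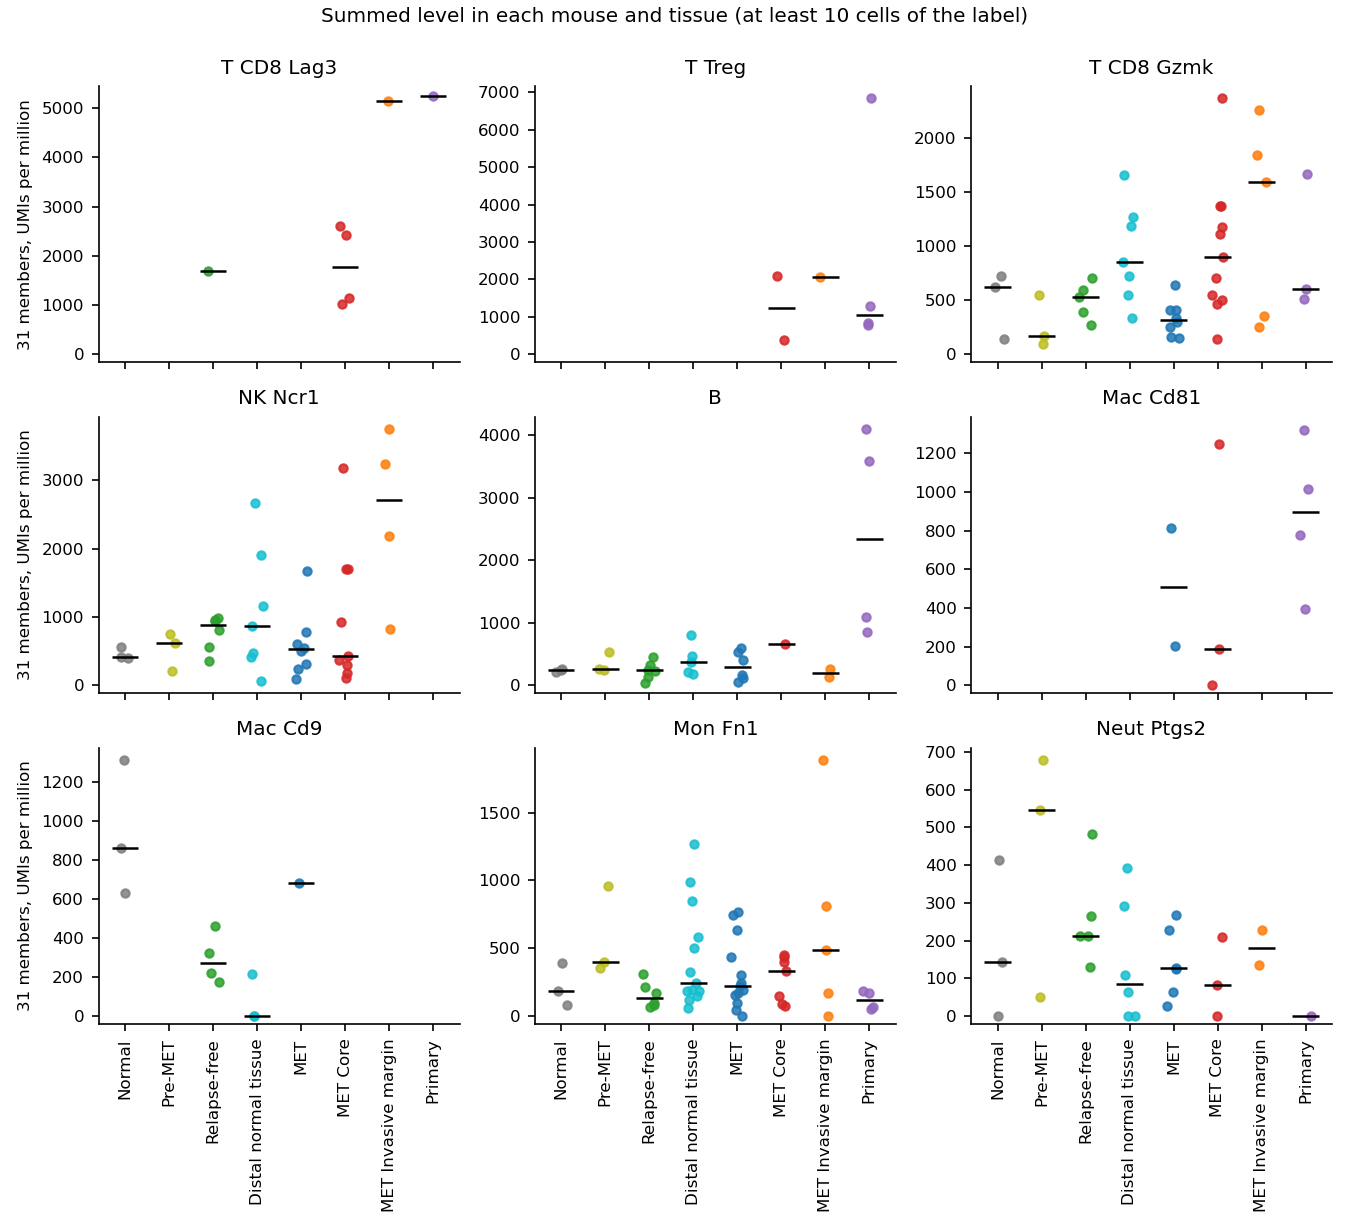
Each point is 1 mouse and tissue with at least 10 cells of the label, and the vertical axis gives the summed level of the 31-gene set in CPM on a scale of its own in each panel. Black lines are medians, and the horizontal place of a point within a tissue has no meaning. The 4 Primary B cell samples lie between 844 and 4090 CPM above all others, and T Treg of Primary mouse 38 stands alone at 6841 CPM.

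The macrophage labels were found in different tissues. Mac Cd81 in Primary was at 393, 1323, 1018 and 778 CPM in mice 8, 9, 10 and 38, with 1 of 16, 20 of 37, 30 of 50 and 34 of 57 cells holding 2 or more UMIs. These cells were deep, with median UMIs of 4639.5 to 10406.5, and the thinned shares were 4.84%, 14.9%, 14.9% and 8.03%. MET samples of the label were at 202 and 812 CPM and MET Core samples at 1247, 185 and 0 CPM, which overlapped Primary, and 1 cell held 9 of the 11 UMIs in the first core sample. Primary leaned on single cells as well, with 28 of 32 UMIs of mouse 8 in 1 cell. Without the highest cell of each sample Primary was at 52.4, 876, 582 and 656 CPM in mice 8, 9, 10 and 38. The MET samples were then at 140 and 522 CPM and the cores at 250, 117 and 0 CPM. Mac Cd9 in Normal lungs was at 864, 629 and 1312 CPM, above all 4 Relapse-free samples (462, 219.6, 322 and 173 CPM) and the 3 of Distal normal tissue (0, 218 and 0 CPM). Without the highest cell of each sample Normal was at 368 to 908 CPM and Relapse-free at 89.6 to 374 CPM, which overlapped. MET mouse 31 was at 680.0 CPM. Thinned shares were 8.45%, 3.65% and 12.9% in Normal and 1.56% to 4.65% in Relapse-free lungs, which overlapped. Mac Cd9 cells with 2 or more UMIs carried 1124 CPM of the 4 epithelial genes against 667 CPM in the others, and the part of these genes in the result was not tested. Ranges of the other macrophage labels overlapped between tissues. Mac Isg20 was at 58.0 to 253 CPM in 8 MET samples and 85.3 to 474 CPM in 7 of MET Core, and Mac Gpnmb at 90.5 to 324 CPM in 7 MET samples, 0 to 162 CPM in 3 of MET Core and 113 to 328 CPM in 4 of the margin. Among monocytes, Mon Fn1 was at 0 to 1885 CPM in the margin and 60.5 to 1266 CPM in Distal normal tissue. Without the highest cell of each sample these were 0 to 1114 and 38.0 to 916 CPM. Mon Fn1 was at 353 to 955 CPM in Pre-MET, 0 to 766 CPM in MET and 82.3 to 390 CPM in Normal. It was at 70.6 to 452 CPM in MET Core, 67.0 to 312 CPM in Relapse-free and 51.1 to 182 CPM in Primary.

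Whether single members differed between tissues was tested with edgeR (quasi-likelihood F test on UMIs summed per mouse and tissue, Benjamini-Hochberg adjustment over all genes tested) in 16 comparisons. Member counts were low, and 24 of the 35 members never passed the filter on low counts, so 40 tests of 11 distinct members were made. A member passed at an adjusted p under 0.05 in 1 comparison, Pre-MET against Normal in monocytes. In the other 15, 0 of 34 member tests passed, 3 had an unadjusted p under 0.05, and DESeq2 called 0. Among all genes, 9 of the 16 comparisons called none, with 6 to 137 genes at an unadjusted p under 0.05 and 0 to 12 genes called by DESeq2 in them.

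In Pre-MET against Normal monocytes (3 against 3 mice), 3 of 6 members tested rose: Birc5, Cenpa and H2afz. Birc5 and Cenpa passed the filter on low counts only through the Pre-MET samples, with at most 2 UMIs in a Normal sample. The count of 3 of 6 thus leans on that filter. The background was 4.32% of 4953 genes called. Birc5 had 0 UMIs in each Normal sample and 14, 19 and 49 UMIs in Pre-MET mice 8, 9 and 10, or 34.2, 45.1 and 92.7 CPM. Its edgeR log2 fold change of 7.20 (SE 1.46, adjusted p = 0.0128) depends on the prior count, since Normal was at 0. Cenpa was at 12, 0 and 6.93 CPM in Normal mice 1, 2 and 3 and at 58.6, 71.3 and 90.8 CPM in Pre-MET mice 8, 9 and 10 (log2 fold change 3.60, SE 0.83, adjusted p = 0.0205, edgeR). H2afz was at 173, 193 and 222 CPM in Normal and at 449, 366 and 399 CPM in Pre-MET (log2 fold change 1.02, SE 0.23, adjusted p = 0.0205, edgeR). For all 3 genes every Pre-MET sample lay above every Normal one. Pcna, with a log2 fold change of -1.06, had an adjusted p of 0.268 by edgeR, and its groups overlapped (95.6, 185 and 48.5 CPM in Normal, 65.9, 38.0 and 62.4 CPM in Pre-MET). Mki67 and Top2a did not pass the filter, with Mki67 at 0, 4.11 and 0 CPM and Top2a at 0 in each Normal sample. In Pre-MET mice 8, 9 and 10 Mki67 was at 9.77, 47.5 and 98.3 CPM and Top2a at 2.44, 76.0 and 22.7 CPM. In mouse 9, 1 Mon Ace cell held 14 of the 20 Mki67 UMIs, and 1 held 18 of the 32 Top2a UMIs.

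The monocytes of the 2 groups were of different labels. Mon Fn1 made up 23.0%, 24.8% and 23.8% of monocytes in Normal lungs and 75%, 63.7% and 70.1% in Pre-MET lungs. In Pre-MET, 79 of the 82 Birc5 UMIs lay in 16 of 532 Mon Fn1 cells, and H2afz was at 445 CPM in Mon Fn1 and 246 CPM in Mon Ace, against 260.5 and 136 CPM in Normal. Among Mon Fn1 cells alone, 0 of 4 members tested passed by edgeR, and H2afz had a log2 fold change of 0.74 (adjusted p = 0.324, edgeR). In this label, with the cells of all mice pooled, Birc5 was at 0 CPM in Normal and 76.2 CPM in Pre-MET, and Cenpa at 12.1 and 83.9 CPM. With Birc5 in so few Pre-MET cells, a level of 0 in the 89 Normal cells says little. The summed level of the set overlapped between the groups in this label. It was at 185, 390 and 82.3 CPM in Normal mice 1, 2 and 3. In Pre-MET mice 8, 9 and 10 it was at 353, 399 and 955 CPM. Mon Fn1 held 28, 37 and 24 cells in Normal mice 1, 2 and 3 and 130 to 204 cells in the Pre-MET mice. The part of the lower cell number in the lost calls was not tested. Over all monocytes, H2afz alone passed without the highest cell of each sample, and by DESeq2. The call did not hold without Pre-MET mouse 10, when 0 passed. With no filter on low counts 6 members rose, Ccnb2, Mki67 and Top2a in addition, where 1.44% of 18135 genes were called. Of the 75 further cell cycle genes 9 were tested with the filter and Hmgn2 rose. Of the 18 genes that brake the cycle or mark rest 11 were tested, and the transcription factors Klf2 and Klf4 fell. In that fit 4.32% of all genes were called. Sequencing batch and group cannot be told apart here.

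**Figure D5:**
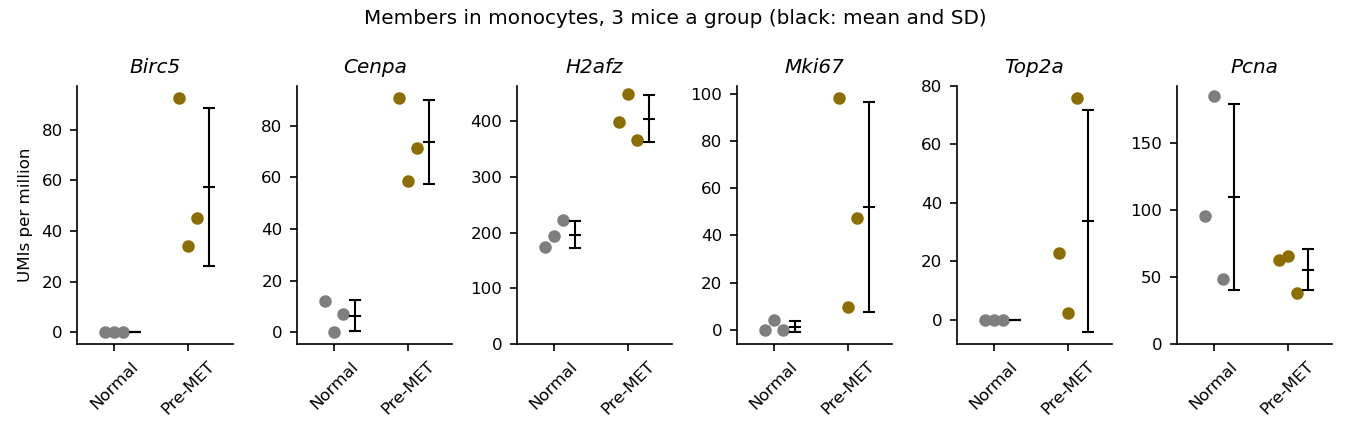
Points give the level of 6 members in CPM in monocytes of 3 Normal and 3 Pre-MET mice, each panel on its own scale, with the mean and SD in black beside them. Birc5, Cenpa and H2afz lie higher in all 3 Pre-MET samples, whereas the Pcna samples overlap.

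In T cells of Pre-MET against Normal, 0 of 6 members passed by edgeR (1 at an unadjusted p under 0.05, 0 by DESeq2), where 1.74% of 3218 genes were called. H2afz was at 160.6 to 238 CPM in Pre-MET and 169.7 to 297 CPM in Normal (log2 fold change -0.14, adjusted p = 0.900), and Pcna at 24.0 to 203 CPM and 69.0 to 103 CPM (log2 fold change 0.27, adjusted p = 0.896). In NK cells 0 of 3 passed, with 0% of 1579 genes called. H2afz was at 443 to 733 CPM in Pre-MET and 417 to 628 CPM in Normal there, with a log2 fold change of -0.15 and an adjusted p of 0.949 by edgeR.

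MET Core was compared with Primary in T cells, monocytes and macrophages. For Primary mice 9, 10 and 38 batch and tissue cannot be told apart in these comparisons. In the batch of Primary mouse 8, the set was at 1264 CPM in T cells of Primary and 1796 CPM in those of MET Core, at 373 and 163 CPM in macrophages and at 243 and 188 CPM in monocytes. In T cells (13 against 4 samples) 0 of 10 passed by edgeR, with 0.592% of 2197 genes called. Mki67 was at a median of 59.5 CPM in MET Core (0 to 804) and 132 CPM in Primary (35.1 to 261), with a log2 fold change of 0.05 (SE 0.66, adjusted p = 0.982). Top2a was at a median of 52.6 CPM (0 to 233) and 69.8 CPM (0 to 160), with a log2 fold change of -0.27 and an adjusted p of 0.931. Stmn1 was detected in all 17 samples, at a median of 85.2 CPM (27.8 to 396) in MET Core and 38.8 CPM (15.7 to 73.1) in Primary, with a log2 fold change of 1.40 (SE 0.63, unadjusted p = 0.0343, adjusted p = 0.260 by edgeR). The log2 fold change of H2afz was 0.40, with an adjusted p of 0.736. With no filter on low counts Cdc20, the activator of the anaphase-promoting complex, was lower in MET Core, where 1.51% of 22655 genes were called.

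In monocytes of MET Core against Primary 0 of 2 members passed by edgeR, with 1.47% of 1835 genes called, and H2afz had a log2 fold change of 0.28 (adjusted p = 0.827). In macrophages (10 against 4 samples) 0 of 2 passed, with 4.53% of 2162 genes called, and H2afz had a log2 fold change of 0.30 (adjusted p = 0.778). With no filter, 6 of 35 members were lower in MET Core macrophages: Ccnb1, Ccnb2, Cenpe, Tk1, Top2a and Ube2c, where 1.33% of 19466 genes were called. The macrophages of these tissues were of different labels, with 160 Mac Cd81 and 26 Mac Isg20 cells in Primary against 79 Mac Cd81, 235 Mac Isg20 and 98 Mac Gpnmb cells in MET Core, and the part of this mix in the result was not tested. Among the further lists, Dek, a chromatin protein, was lower in MET Core macrophages, and Gadd45b, a stress-induced brake, was higher in MET Core monocytes.

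For MET against Distal normal tissue, 8 comparisons were made and 0 members passed by edgeR in any. The background was 9.54% of 1289 genes called in macrophages, 1.48% of 2098 in monocytes, and 0% in T cells, NK cells, neutrophils, DCs, B cells and T CD8 Gzmk, in which 265 to 715 genes were tested. In T cells, DCs, B cells and T CD8 Gzmk no member passed the filter. H2afz was at a median of 202 CPM in MET monocytes (42.2 to 561) and 258 CPM in Distal normal tissue (107 to 385), with a log2 fold change of -0.14 (adjusted p = 0.985). In NK cells its medians were 389 and 359 CPM, with a log2 fold change of 0.47 (adjusted p = 0.987, edgeR). T CD8 Lag3 could not be compared, since fewer than 3 samples of a tissue held 10 of its cells.

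In MET Core against MET Invasive margin, 0 of 4 members passed in T cells and 0 of 1 in monocytes by edgeR, with 0% of 1195 and of 1025 genes called. H2afz in T cells was at a median of 185 CPM in MET Core and 190 CPM in the margin (log2 fold change -0.05, adjusted p = 0.998), and in monocytes at 176 and 217 CPM (log2 fold change -0.65, adjusted p = 0.798). With no filter Bub1b, a spindle checkpoint kinase, was higher in core monocytes, where 0.466% of 19527 genes were called. Most members went the other way in that fit, where 7 of 34 were higher in the core. By edgeR 14 had an unadjusted p under 0.05, and 2 of these were higher in the core. Without the highest cell of each sample, the set had a median of 110 CPM in core monocytes (0 to 402) and 257 CPM in the margin (0 to 862), which overlapped. Tissues of the same mouse were available for 10 of these comparisons, and with the mouse as a replicate block 9 fits could be made. Of these, 5 had a member to test, and 0 members passed, as without the block.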

How the data were processed

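SPID-seq captured 3' mRNA of single cells in multiwell plates. The UMI counts per gene and well were deposited by the authors, who demultiplexed with bcl2fastq 2.15.0.4, mapped reads to mm10 with HISAT, left out reads with several mapping positions and discarded cells under 500 UMIs. All 148 plates were joined with the authors' cell labels, and 595 wells labelled as tumor cells, erythrocytes or outliers were left out. The 92 rows of ERCC spike-ins held 0 UMIs. No doublet caller was run, since doublets were excluded at sorting.

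Counts were summed per mouse, tissue and label (at least 10 cells) and given as CPM (UMIs per 1000000 of the sum). Shares are percentages of cells with 2 or more UMIs, as deposited and as the share expected when each cell is thinned to 500 UMIs, at which no cell was left out. Binomial intervals and the limit of a count of 0 (3 counts) cover counting error only. Sums of at least 3 samples a side were tested with edgeR 4.0.16 (TMM, filterByExpr with a minimum count of 10, quasi-likelihood F test, Benjamini-Hochberg adjustment over all genes tested), and DESeq2 1.42.0 was an alternative. The code was tested on simulated data. The text names Mki67, Top2a, Pcna, Mcm5, Stmn1 and H2afz where tested, every member called, and the highest member of each role group, while other members were chosen after their values were seen. The members and gene lists were chosen with earlier results of these data known. Promoters came from RefSeq (GRCm38.p6), with 1 of the 30 matched under another symbol.

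Tissues of the same mouse form true pairs. Of 60 such pairs, 45 had deviations from the group means that correlated above 0.1, and the median correlation was 0.0353 to 0.465 over the comparisons.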

Additional observations from a re-analysis of the deposited data

Results flagged for a closer look

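In 4 of 50 groups of 4 to 10 samples, 1 sample lay far from the rest in the summed level of the 31-gene set, and chance alone gives about 1 in 20. T Treg of Primary mouse 38 was at 6841 CPM (27 cells, 706 UMIs), with the next tumor at 1285 CPM and the lowest at 776.3 CPM. Neutrophils of Relapse-free mouse 35 were at 445.2 CPM (148 cells), with the next of 5 samples at 169.1 CPM, and 96 of the 117 UMIs were Kif23. NK Ncr1 of MET mouse 32 stood at 1671 CPM (19 cells, 83 UMIs), with the next of 8 samples at 783.2 CPM. DCs of MET mouse 26 stood at 616.8 CPM (15 cells, 13 UMIs), with the next of 10 samples at 298.3 CPM and the lowest at 0.

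Signal was also seen in wells that no comparison used. Of the 94 wells labelled Tumor, 30.85% held 2 or more UMIs of the set, at 3086 CPM. Of these 1599 UMIs 87.1% lay in 5 wells, 476 of them in 1. Of 336 Erythrocytes wells, 6.25% did so, at 681 CPM (273 UMIs, 138 of them in 1 well), against 6.91% and 269 CPM in Mon Ace. Among 32812 wells without a label, 16 held 10 or more UMIs of the set, and 9 of these 16 had over 50000 UMIs each.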

How the results depend on the processing

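The count of members called was recomputed in 111 alternatives over the 16 comparisons, and in 94 of them it stayed at 0. Of these 94, 13 had no member to test, and 51 had both a member tested and any gene called, so a count of 0 says little of stability in the others. In Pre-MET against Normal monocytes the 3 calls became 1 with DESeq2, 6 with no filter on low counts, and 0 to 3 when 1 mouse was left out (0 without Pre-MET mouse 10, 1 without Normal mouse 2 or Pre-MET mouse 9). In alternatives chosen after seeing the data, they became 0 in Mon Fn1 cells alone and 1 without the cell with most member UMIs in each sum. With no filter, 0 calls became 1 in T cells and 6 in macrophages of MET Core against Primary and 1 in monocytes of MET Core against MET Invasive margin. With at least 20 cells a sum, 0 became 1 in monocytes of MET Core against Primary (Tubb5). The cause was not tested in any of these.

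With the mouse as a replicate block, 9 paired fits called 0 members and changed no call, but 4 of them had no member to test. DCs shared 1 mouse between tissues and could not be fitted with a block. The comparison of T CD8 Lag3 between MET and Distal normal tissue was not run.

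The share of cells with 2 or more UMIs of the 35 members was 2.10 times as high in Primary as the median of the other 7 tissues, 1.26 times after thinning to 500 UMIs and 1.195 times after thinning cells of at least 1000 UMIs to 1000. The same share in T CD8 Lag3 was 2.40 times that in Mon Ace, 3.93 times after thinning, 5.005 times without Stmn1, Hmgb2, Tubb5 and H2afz, and 38.63 times at 10 or more UMIs without these 4, a threshold chosen after seeing the data.

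Log2 fold changes that turned sign were all uncalled. With no filter on low counts, MET Core against Primary gave -0.14 for Mki67 in T cells, -0.09 for H2afz in monocytes and -0.02 for H2afz in macrophages, and H2afz in T cells of MET Core against the margin came to 0.0. In cells of at least 1000 UMIs, H2afz was at -0.03 in NK cells of MET against Distal normal tissue, -0.24 in monocytes of MET Core against Primary, 0.03 in T cells of Pre-MET against Normal and 0.14 in T cells of MET Core against the margin, and Top2a was at 0.79 in T cells of MET Core against Primary. Without Primary mouse 8, Mki67 was at -0.22 in T cells. Without Pre-MET mouse 8, Pcna was at -0.62, and without Normal mouse 1, H2afz was at 0.12, both in T cells of Pre-MET against Normal.

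Of the 35 members, 24 never passed the filter on low counts, so no test of them was made at these counts.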
